A study of Homo sapiens with 6 samples.

Results

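The endoplasmic reticulum membrane protein complex (EMC) was followed through the mRNAs of 9 of its subunits, EMC1, EMC2, EMC3, EMC4, EMC6, EMC7, EMC8, EMC9 and EMC10, in SK-BR-3 cells with lowered GRB2 mRNA. The 9 genes were found by symbol among the 30327 genes of the count table, and all 9 also had FPKM values and passed the filter on low counts that left 15801 genes for testing. The set was chosen by a measured value, since EMC6 had been seen to be higher in the GRB2 siRNA libraries, so the values of EMC6 are given as a description with no test and the question was whether the other 8 subunits moved with it. EMC5, which is encoded by MMGT1, was not among the 9 and is given beside them.

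The EMC is an insertase of the endoplasmic reticulum (ER) membrane. It places transmembrane segments of newly made proteins into the lipid bilayer, in particular those of tail-anchored proteins and the first segments of many multipass receptors and transporters. EMC3, EMC5 and EMC6 form the membrane core through which segments pass, EMC2 with EMC8 or its paralogue EMC9 caps the cytosolic side, and EMC1, EMC7 and EMC10 reach into the ER lumen. In other cell systems, loss of 1 core subunit lowers the protein of the others, which the RNA measured here does not report.

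SK-BR-3 is an established breast cancer cell line that overexpresses the receptor HER2. The si_NC group of 3 libraries received a nontargeting control siRNA, and the si_GRB2 group of 3 libraries received an siRNA against GRB2, an adaptor protein of receptor tyrosine kinase signalling, for which a single sequence is given in the methods. The sample titles, the genotype labels and the section of the methods on groups instead call the second group GRB2 overexpression. Its libraries are therefore named here by the label si_GRB2. Both groups are 1 cell line without further treatment, and no source says that the 3 libraries of a group came from separate cultures, so p-values measure the spread between these libraries, which may be technical. The libraries held 24810378 to 28532480 counts. GRB2 was measured at 124, 129.5 and 126 CPM (reads scaled to the same library total) in si_NC and at 27.8, 28.2 and 29.6 CPM in si_GRB2, a change of -2.15 on the log2 scale (edgeR's quasi-likelihood test, adjusted p = 3.87e-15), so GRB2 mRNA was lower, not higher, in the libraries labelled si_GRB2. Of the marker genes of the line, ERBB2, which encodes HER2, went from 3499 to 4140 CPM while KRT8, KRT18, KRT19 and EPCAM were lower in si_GRB2, and the leukocyte marker PTPRC and the endothelial marker PECAM1 stayed below 0.05 CPM, and the fibroblast marker COL1A1 was at 4.50 and 4.57 CPM. The part of these shifts in the subunit values was not tested. In RNA from whole cultures, a smaller share of cells expressing a gene and less of its RNA per cell cannot be told apart.

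The difference in EMC6 was not shared by the whole complex. EMC1 rose 1.15-fold and EMC7 1.09-fold, and MMGT1, the EMC5 gene, fell to 0.823 of its si_NC level. EMC2, EMC3, EMC4, EMC8, EMC9 and EMC10 were not called in either direction in the main edgeR fit. Of the 8 subunits other than EMC6, 2 were therefore called higher and 0 lower at an adjusted p under 0.05 (edgeR's quasi-likelihood test, Benjamini-Hochberg adjustment over all 15801 genes tested). Over all genes tested, 15.2% were called higher and 15.5% lower, so 2 of 8 is near the background. The median log2 fold change of the 8 subunits was 0.04, with a range of 0.01 to 0.20, against a median of 0.0019 over all genes. None of the 8 reached the limits used for a differentially expressed gene (DEG), an adjusted p under 0.01 and a change of at least 1.5-fold, which 2.52% of all genes tested did. The 3 si_NC and 3 si_GRB2 values did not overlap for 2 of the 8, EMC1 and EMC7, against 42.3% of all genes tested.

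**Figure D1:**
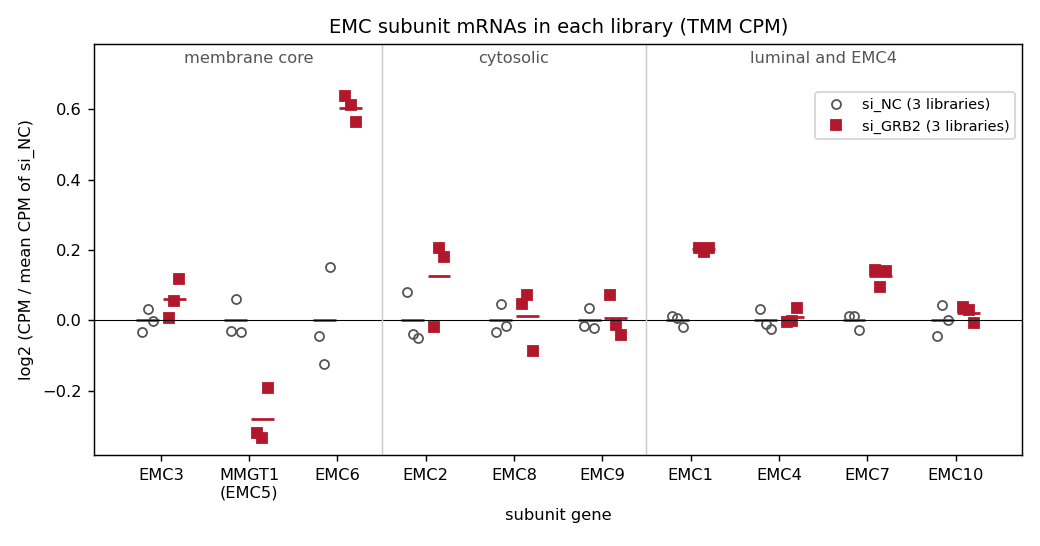
Log2 of the CPM of each library over the mean of the si_NC libraries (vertical axis) for each subunit gene (horizontal axis), with open circles for 3 si_NC libraries, squares for 3 si_GRB2 libraries and short lines for group means. The EMC6, EMC1 and EMC7 squares lie above their circles, the MMGT1 squares lie below, and in the other 6 subunits the groups overlap.

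In the membrane core stands EMC6, the gene whose difference chose the set. EMC6 (ENSG00000127774.7; GRCh38 chr17:3668812-3669668, plus strand) encodes a small multipass protein that packs against EMC3, and its MANE Select transcript has 2 exons and 656 bases. It was measured at 23.0, 21.8 and 26.3 CPM in si_NC and at 36.9, 36.2 and 35.1 CPM in si_GRB2. All 3 si_GRB2 libraries lay above all 3 si_NC libraries, and the third si_NC library was the highest of its group. The log2 fold change was 0.60 (SE 0.06), or 1.52-fold, with 555 to 995 reads behind each value. In the FPKM deposited by the authors, EMC6 went from 24.7 ± 3.31 to 38.7 ± 0.913 (SD, n = 3 in each group). EMC6 lay just inside the 1.5-fold limit of the DEG definition: without the first or the second si_NC library its log2 fold change was 0.57 or 0.54, below that limit, and the nearest of the other 8 members outside it was EMC1 at 0.20.

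EMC3 (GRCh38 chr3:9962682-10011202, minus strand), the Oxa1-like subunit at the centre of the insertase, ranged from 107 to 112 CPM in si_NC and from 110.5 to 119 CPM in si_GRB2. The groups overlapped, and the log2 fold change was 0.06 (95% interval -0.01 to 0.14, adjusted p = 0.222 by quasi-likelihood in edgeR). With total counts and no TMM, the same test called EMC3 higher (log2 fold change 0.11, adjusted p = 0.0224). MMGT1 (ENSG00000169446.6; GRCh38 chrX:135960588-135974029, minus strand), which encodes the third core subunit EMC5, was measured at 37.3, 39.6 and 37.2 CPM in si_NC. In si_GRB2 it was at 30.4, 30.2 and 33.3 CPM. All si_GRB2 values were below all si_NC values. MMGT1 fell by 0.28 on the log2 scale (SE 0.05, adjusted p = 0.000461 by quasi-likelihood in edgeR). In the main fit the 3 core genes thus showed a higher level (EMC6), no called difference (EMC3) and a lower level (MMGT1). On log2(FPKM + 1) with limma, MMGT1 kept its direction but was no longer called, with a log2 fold change of -0.20 (adjusted p = 0.105), and with the genes limited to a mean FPKM of at least 1 the same fit called it (adjusted p = 0.029).

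The cytosolic subunits gave no called difference. EMC2, the tetratricopeptide repeat scaffold under the membrane core, was the least counted subunit, with 174 to 222 reads in each library. It was at 7.42, 6.83 and 6.77 CPM in si_NC and at 6.91, 8.08 and 7.94 CPM in si_GRB2. The first si_GRB2 library lay within the si_NC range and the other two lay above it. Its log2 fold change was 0.13 with a 95% interval of -0.09 to 0.34 (adjusted p = 0.397 by quasi-likelihood in edgeR), so a change as large as that of EMC1 or EMC7 was not detectable at this depth. For EMC8 (GRCh38 chr16:85771758-85799608, minus strand) the libraries spanned 31.5 to 33.3 CPM in si_NC and 30.3 to 33.9 CPM in si_GRB2, with a log2 fold change of 0.01 (95% interval -0.09 to 0.12, adjusted p = 0.880). For EMC9 (GRCh38 chr14:24138959-24141591, minus strand) they spanned 42.5 to 44.2 and 41.9 to 45.4 CPM, with a log2 fold change of 0.01 (95% interval -0.09 to 0.10, adjusted p = 0.927). In both genes the groups overlapped fully.

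EMC8 and EMC9 take the same place in the complex, so their relative mRNA levels were compared per length. EMC9 made up 77.4%, 77.0% and 77.1% of the summed EMC8 and EMC9 FPKM in the si_NC libraries and 77.5%, 76.1% and 77.7% in the si_GRB2 libraries. The groups overlapped, and the means were 77.2% ± 0.182 and 77.1% ± 0.854 (SD, n = 3 each, exact two-sided permutation test p = 1, where 0.1 is the smallest p that 3 against 3 allows). EMC9 was therefore the more abundant mRNA of the pair in every library.

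On the luminal side, EMC1 and EMC7 rose and EMC10 did not pass the test. EMC1 (ENSG00000127463.15 in the counts) encodes the largest subunit, which carries beta-propeller domains in the lumen. In GENCODE 44, ENSG00000127463.16 lies at GRCh38 chr1:19215660-19251552 on the minus strand. EMC1 was measured at 62.8, 62.6 and 61.5 CPM in si_NC and at 71.8, 71.3 and 71.9 CPM in si_GRB2. Both groups were tight and lay apart. The log2 fold change was 0.20 (SE 0.04, 95% interval 0.13 to 0.28, adjusted p = 0.000386 by quasi-likelihood in edgeR).

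EMC7 (ENSG00000134153.10; GRCh38 chr15:34084017-34101862, minus strand), a single-pass subunit with a luminal beta-sandwich domain, was measured at 125.2, 125.2 and 122 CPM in si_NC and at 137, 132 and 137 CPM in si_GRB2. The lowest si_GRB2 library was above the highest si_NC library. The log2 fold change was 0.13 (SE 0.03, 95% interval 0.06 to 0.19, adjusted p = 0.00547 by quasi-likelihood in edgeR). EMC1 and EMC7 were called in each alternative fit that tested for any change and with any single library left out. Their log2 fold changes ranged from 0.19 to 0.25 and from 0.11 to 0.18 in those fits.

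EMC10 (GRCh38 chr19:50476400-50490871, plus strand), the other luminal beta-sandwich subunit, had the most reads of the 9, from 145 to 154 CPM in si_NC and from 149 to 154 CPM in si_GRB2. Its groups overlapped, and its log2 fold change of 0.02 had a 95% interval of -0.05 to 0.09 (adjusted p = 0.663 by quasi-likelihood in edgeR). EMC4 (GRCh38 chr15:34225013-34230156, plus strand), a membrane subunit beside the core, ranged from 104 to 108 CPM in si_NC and from 105 to 108 CPM in si_GRB2, with overlap. Its log2 fold change was 0.01 with a 95% interval of -0.06 to 0.08 (adjusted p = 0.864). For both genes the interval excludes a change the size of the EMC1 estimate.

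The subunits stand in fixed proportion in the assembled complex, but their mRNA levels per length did not. In the FPKM of the si_NC libraries, EMC7 was highest at 68.6 ± 1.46 (SD, n = 3), followed by EMC6 at 24.7, EMC9 at 21.8, EMC3 at 20.7, EMC4 at 19.1, EMC10 at 11.2, EMC8 at 6.44, MMGT1 at 5.89 and EMC1 at 5.21, and EMC2 was lowest at 0.927 ± 0.0252. EMC7 exceeded EMC2 74.0-fold in si_NC and 73.5-fold in si_GRB2. The libraries of EMC9 and EMC3 overlapped, and each other pair of neighbours in this order lay apart in the si_NC libraries. In si_GRB2 the order was the same except that EMC1, at 6.18, passed MMGT1.

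The length used for FPKM shaped this order. With the sum of the deposited counts taken as the read total, the FPKM implied lengths about 1.22 times the summed exons of all transcripts. The factor was 1.25 for EMC3 and 0.78 for EMC1. Another read total would change all these factors alike. EMC1 and EMC3 were the subunits whose gene version in the counts differed from that in GENCODE 44. The source of these factors was not tested. The FPKM of EMC1 is thus higher relative to the other genes than its summed exons would give. The summed exons of EMC4 come to 4445 bases against 1019 bases for its MANE Select transcript. With TMM CPM per kilobase of MANE Select transcript, a scale chosen after the data were seen, 4 of the 10 genes kept their rank. EMC7 (116) stayed first and EMC2 (1.99) last, EMC4 (104) moved to second, and EMC6 (36.1) came after EMC9 (51.5) and EMC3 (46.7). On that scale EMC6 reached 55.0 in si_GRB2, where its libraries overlapped those of EMC9.

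**Figure D2:**
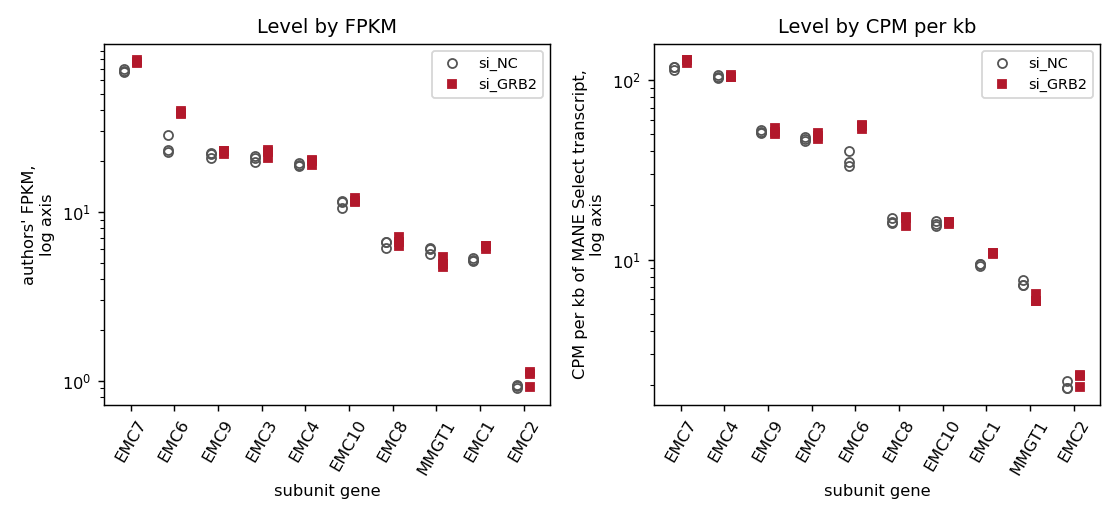
Level of each subunit mRNA in 3 si_NC libraries (circles) and 3 si_GRB2 libraries (squares) on log axes, as the authors' FPKM (left) and as TMM CPM per kilobase of MANE Select transcript (right), ordered by the si_NC mean. EMC7 was highest and EMC2 lowest on both scales, and EMC4 stood at rank 5 by FPKM but at rank 2 by MANE Select length.

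Many subunit genes start next to another gene on the opposite strand, a layout called a bidirectional promoter when a common stretch drives both. Of the 9 subunit genes, 6 had the start of a protein-coding gene on the opposite strand within 1000 bases of their own. That is 66.7%, against 13.4% of 20046 protein-coding genes in GENCODE 44, whether or not expressed in SK-BR-3. MMGT1 was not counted. Of the close genes, COX4I1 and GARIN5A also overlap EMC8 and EMC10, by 976 and 449 bases. TAX1BP3, which encodes a small PDZ protein, starts 133 bases from EMC6. It was at 94.2, 95.4 and 96.3 CPM in si_NC and at 94.0, 90.8 and 91.8 CPM in si_GRB2. The si_GRB2 values of TAX1BP3 were the lower ones in CPM, by a small margin, and no difference was called. In FPKM the TAX1BP3 groups overlapped, with means of 55.5 in si_NC and 55.3 in si_GRB2. Its log2 fold change was -0.05 (95% interval -0.12 to 0.02, adjusted p = 0.312 by quasi-likelihood in edgeR).

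MRTO4, a ribosome assembly factor gene that starts 253 bases from EMC1, fell while EMC1 rose. It was at 109, 111 and 109 CPM in si_NC and at 94.8, 95.7 and 94.5 CPM in si_GRB2, with no overlap. It fell by 0.21 on the log2 scale (SE 0.03, adjusted p = 0.00012 by quasi-likelihood in edgeR). The other 4 genes with close starts gave no called difference. They were PGBD4 beside EMC7 (log2 fold change 0.14, adjusted p = 0.429), the translation initiation factor gene EIF3E beside EMC2 (0.01, 0.870), the cytochrome c oxidase gene COX4I1 beside EMC8 (0.00, 0.973) and GARIN5A, named FAM71E1 in the files, beside EMC10 (0.22, 0.320).

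**Figure D3:**
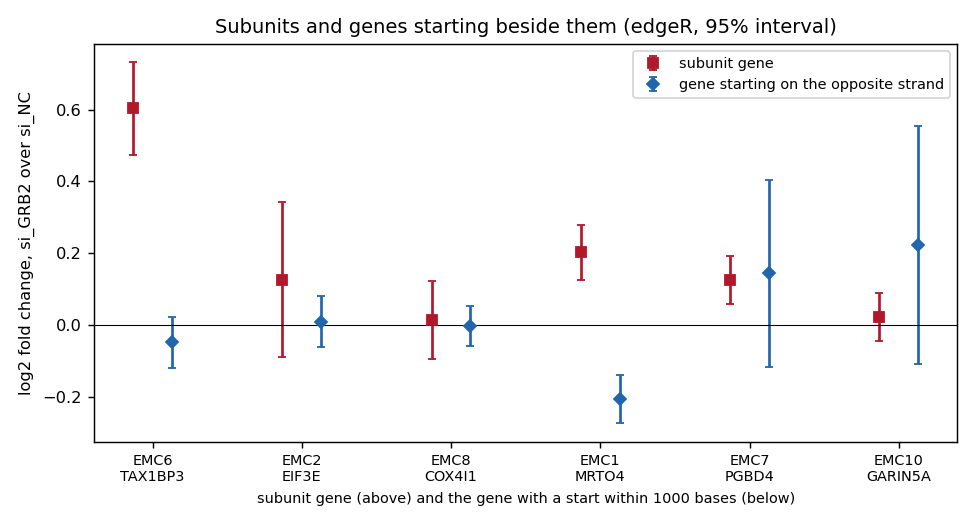
Log2 fold change of si_GRB2 over si_NC with its 95% interval (edgeR, 3 libraries in each group) for 6 subunit genes (squares) and for the gene that starts on the opposite strand within 1000 bases of each (diamonds). EMC6 lies at 0.60 and TAX1BP3 at -0.05, EMC1 at 0.20 and MRTO4 at -0.21.

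Overlapping genes matter for reading these counts because the strand setting of the counting is not given in the sources used here. The readthrough gene P2RX5-TAX1BP3 lies across EMC6 on the opposite strand and shares 568 of the 656 bases of its MANE Select transcript. It was at 6.92, 7.57 and 4.60 CPM in si_NC and at 8.82, 6.66 and 7.19 CPM in si_GRB2, and its reads came to 23.2% of those of EMC6. Its groups overlapped, with a log2 fold change of 0.25 (95% interval -0.08 to 0.58, adjusted p = 0.259 by quasi-likelihood in edgeR). PSME1, a proteasome activator subunit gene called lower (log2 fold change -0.18, adjusted p = 0.000843), shares 3 bases with EMC9. Whether reads were split or exchanged between such genes was not tested.

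Sequences around the start sites of EMC6, EMC1, EMC7 and EMC10 are shown because the first 3 were higher in si_GRB2 and the fourth, also a luminal subunit, was not called. Each runs from 250 bases before to 50 bases after the start of the gene in RefSeq (GRCh38.p14), 5′ to 3′ on the strand of the gene, and capitals mark matches on either strand to the CCAAT box (CCAAT), the GC box of Sp1-type factors (GGGCGG), the cyclic AMP response element (TGACGTCA), the core of the unfolded protein response element bound by XBP1 (TGACGTGG), the ETS site (CCGGAAGT) or the TATA box (TATAAA). The stretches are chr17:3668562-3668861 (plus strand) for EMC6, chr1:19251475-19251774 (minus) for EMC1, chr15:34101813-34102112 (minus) for EMC7 and chr19:50476257-50476556 (plus) for EMC10. A match is a description of the letters and not evidence of binding.
EMC6: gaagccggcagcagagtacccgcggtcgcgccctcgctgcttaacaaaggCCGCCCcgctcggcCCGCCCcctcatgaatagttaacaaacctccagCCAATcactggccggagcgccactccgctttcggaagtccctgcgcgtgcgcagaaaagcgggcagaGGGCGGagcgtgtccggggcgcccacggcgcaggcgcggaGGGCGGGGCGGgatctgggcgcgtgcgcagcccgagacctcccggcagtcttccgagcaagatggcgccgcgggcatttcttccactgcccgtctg
EMC1: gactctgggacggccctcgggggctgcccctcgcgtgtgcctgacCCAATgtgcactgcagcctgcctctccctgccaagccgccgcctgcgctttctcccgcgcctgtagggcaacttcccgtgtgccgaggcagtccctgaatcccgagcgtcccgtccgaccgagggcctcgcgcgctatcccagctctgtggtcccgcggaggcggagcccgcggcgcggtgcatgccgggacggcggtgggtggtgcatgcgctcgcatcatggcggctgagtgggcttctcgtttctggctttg
EMC7: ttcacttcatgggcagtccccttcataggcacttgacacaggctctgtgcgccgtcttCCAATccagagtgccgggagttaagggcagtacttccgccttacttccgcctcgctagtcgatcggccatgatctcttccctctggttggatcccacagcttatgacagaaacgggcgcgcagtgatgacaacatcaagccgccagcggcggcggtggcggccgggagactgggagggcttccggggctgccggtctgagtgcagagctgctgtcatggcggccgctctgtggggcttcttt
EMC10: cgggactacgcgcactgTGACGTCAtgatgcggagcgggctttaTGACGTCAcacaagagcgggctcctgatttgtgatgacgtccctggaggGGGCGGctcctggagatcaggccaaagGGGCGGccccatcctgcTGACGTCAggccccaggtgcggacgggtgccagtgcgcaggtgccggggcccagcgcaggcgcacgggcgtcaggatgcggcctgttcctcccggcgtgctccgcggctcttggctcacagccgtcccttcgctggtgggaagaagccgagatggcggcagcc

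The 3 subunits with higher values did not share the GC box letters. EMC6 had 5 matches to GGGCGG, which overlap in part, and EMC1 and EMC7 had 0, while EMC10 had 2. CCAAT occurred once in each of EMC6, EMC1 and EMC7 and 0 times in EMC10. These letters are common, as 35.7% of 27305 RefSeq promoters of this length held CCAAT and 44.6% held GGGCGG. EMC4 and EMC9, which had no called difference, each held CCAAT in 2 places. EMC10 was the only 1 of the 8 subunits in the promoter table with TGACGTCA, in 3 places, and 2.0% of all promoters held it. CCGGAAGT occurred once in EMC4 and in 4.4% of promoters. TGACGTGG (0.8% of promoters) and TATAAA (12.0%) occurred in no subunit of the table. The table held no entry for EMC2 and MMGT1.

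Genes that work beside the EMC were counted to place the subunits among other routes into the ER membrane. Of 57 tested genes in 9 lists, 24 were called higher and 6 lower by edgeR's quasi-likelihood test, with a median log2 fold change of 0.09 and 0 DEGs. The lists were chosen with earlier results of these data known, and 15.2% and 15.5% of all genes tested were called in the same directions. Some genes stand in more than 1 list. The lists also hold EMC clients, EMC6 binding partners in autophagy and unfolded protein response targets, which are not routes into the membrane. These gave 0, 1 and 5 of the higher calls and 2, 0 and 1 of the lower calls.

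Targeting to the membrane and cleavage of signal peptides held 9 of the 24 higher calls. The shares over all genes tested were 15.2% higher and 15.5% lower. Of 8 genes of the signal recognition particle and its receptor, 5 were called higher and 0 lower (median 0.13), among them SRP19, which rose from 15.6 ± 1.36 to 20.1 ± 0.812 CPM (SD, n = 3 each, log2 fold change 0.36, adjusted p = 0.000791), SRPRA (0.21), SRPRB (0.15) and SRP54 (0.14). Of 5 signal peptidase subunits, 4 were called higher (median 0.20): the catalytic subunits SEC11A (0.22) and SEC11C (0.19), and SPCS3 (0.21) and SPCS2 (0.20). With limma on log2(FPKM + 1) and log2(FPKM + 0.1), 1 and 2 of the 8 signal recognition genes were called higher. SPCS1 of the signal peptidase had a log2 fold change of -0.05 (adjusted p = 0.288).

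Of 12 genes of the Sec61 translocon and its accessory proteins, 5 were called higher and 0 lower (median 0.05). The shares over all genes tested were 15.2% higher and 15.5% lower. The pore subunit SEC61A1 itself had a log2 fold change of -0.01 (adjusted p = 0.917 by quasi-likelihood in edgeR), and the called genes with the largest values were SSR2 (0.18), SEC62 (0.17), SSR3 (0.12) and SEC61B (0.12). Without the third library of si_NC or of si_GRB2, 3 of the 12 were called higher, and 2 were with limma on log2(FPKM + 1) or log2(FPKM + 0.1). In the multipass translocon, which acts with Sec61 on proteins of many segments, 4 of 8 were called higher and 1 lower (median 0.13). CCDC47 (0.19) and NCLN (0.17) rose, RAB5IF fell by 0.23 (not called in 3 limma fits on FPKM), and the near-identical NOMO1 and NOMO2 (0.12 and 0.14) may share reads and are uncertain. Without the third si_NC library, 2 of the 8 were called higher, and 1 was with the same 2 limma fits.

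Tail-anchored proteins can enter by the GET pathway as well as by the EMC. Of the 7 GET genes, 0 were called higher and 2 lower (median -0.07), against 15.2% and 15.5% of all genes tested. No test of the list as a set was run. GET3, the targeting ATPase, fell from 127 ± 0.343 to 105 ± 4.29 CPM (SD, n = 3 each, log2 fold change -0.28, adjusted p = 1.37e-05 by quasi-likelihood in edgeR). UBL4A fell by 0.18. In each of 3 limma fits on FPKM, 1 of the 7 was called lower. The receptor subunits GET1 (0.13, adjusted p = 0.0587) and CAMLG (0.05, adjusted p = 0.630) were not called. Of the 4 insertases of the Oxa1 superfamily, EMC3, GET1, TMCO1 and OXA1L, 0 were called in the main edgeR fit or by DESeq2 (median 0.03). GET1 alone had an unadjusted p under 0.05 in the main fit. Without the first si_GRB2 library, 1 of these 4 and 1 of the 7 GET genes were called higher. With total counts and no TMM in edgeR, 2 of these 4 and 1 of the 7 were called higher.

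Of 4 known client proteins of the EMC, 2 were called lower and 0 higher, against 15.5% and 15.2% of all genes tested. With total counts and in each of 3 limma fits on FPKM, 1 of the 4 was called lower. No test of the list as a set was run. TMEM97, a sterol-regulated receptor of the ER, went from 114 ± 4.78 to 84.5 ± 1.19 CPM (log2 fold change -0.43, adjusted p = 2.63e-07), and FDFT1, the squalene synthase, fell by 0.12. SOAT1 (0.01, adjusted p = 0.932) and ADRB1 (0.17, adjusted p = 0.476) were not called. EMC6 has also been described as a binding partner of RAB5A and BECN1 in autophagosome formation. RAB5A rose from 54.3 ± 2.49 to 65.9 ± 0.852 CPM (log2 fold change 0.28, adjusted p = 7.99e-05) and BECN1 was not called (0.07, adjusted p = 0.330).

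Among 10 targets of the unfolded protein response, which adjusts ER folding capacity, 5 were called higher and 1 lower (median 0.15). The shares over all genes tested were 15.2% higher and 15.5% lower. DNAJB9 rose from 71.3 ± 3.85 to 91.4 ± 2.89 CPM (SD, n = 3 each, log2 fold change 0.36, adjusted p = 8.55e-06 by quasi-likelihood in edgeR). CRELD2 (0.31), XBP1 (0.29) and the chaperone gene HSPA5 (0.20) also rose, and PDIA4 fell by 0.09. The PDIA4 call was lost without the first or the third si_NC library or without any 1 of the si_GRB2 libraries. It was also lost with total counts and no TMM, in each limma fit on FPKM and with the replicate number as a block. The stress transcription factor genes ATF4 (-0.03, adjusted p = 0.494) and DDIT3 (0.10, adjusted p = 0.423) were not called.

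**Figure D4:**
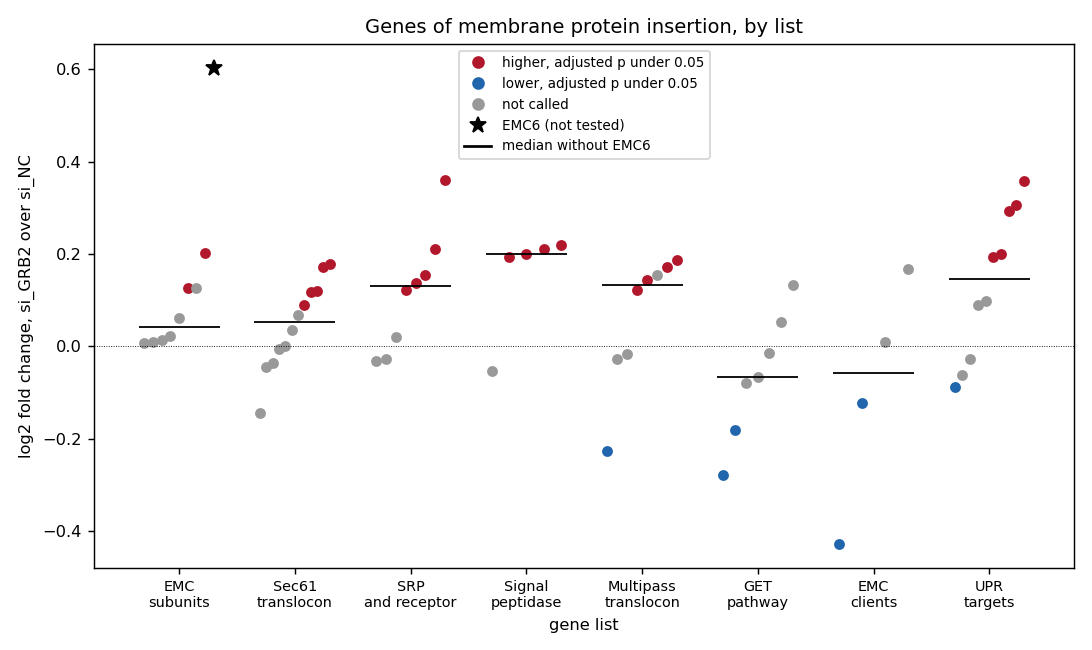
Log2 fold change of si_GRB2 over si_NC (vertical axis) for each tested gene of 8 groups (horizontal axis), where each point is a gene, colours give the edgeR call, the star is EMC6 and black lines are medians without EMC6. The EMC subunits other than EMC6 lie between 0.01 and 0.20, and medians of the other lists run from -0.07 (GET pathway) to 0.20 (signal peptidase).

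The pattern of EMC6 over the 6 libraries was compared with that of 10623 tested genes with a mean of at least 5 CPM, as the root mean square difference of log2 CPM after centring each gene. The closest were ZW10 (0.04), a kinetochore and vesicle tethering protein, KPNA7 (0.05), an importin, ZDHHC16 (0.05), a palmitoyltransferase, KREMEN1 (0.05), a Dickkopf receptor of the Wnt pathway, and ULK1 (0.06), the kinase that starts autophagy. The distances of the other 8 subunits from EMC6 ran from 0.22 (EMC1) to 0.32 (EMC9). No other EMC subunit was among the 5 closest genes. This distance grows with the difference in log2 fold change, and EMC6 was chosen for its rise. The larger distances of the other subunits therefore restate their smaller fold changes and are no separate result. The 5 closest genes rose 1.45-fold to 1.58-fold beside 1.52-fold for EMC6, so their closeness is no separate result either. ZW10 went from 23.9 ± 1.54 to 37.8 ± 1.11 CPM and ULK1 from 23.4 ± 0.877 to 34.8 ± 0.761 CPM (SD, n = 3 each), levels close to those of EMC6 itself (23.7 ± 2.37 and 36.1 ± 0.911 CPM).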

How the data were processed

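RNA of SK-BR-3 cells was captured on poly(A) beads and made into dUTP strand-specific libraries (3 si_NC, 3 si_GRB2). Per the study's methods, the authors trimmed reads with FASTX-Toolkit, placed them on GRCh38 by HISAT2, keeping reads with a single location. They deposited whole-number counts per gene and FPKM per gene, each in 1 table. The counter, its strand setting and the annotation release are not given in the sources used here.

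The main test was edgeR's quasi-likelihood test (edgeR 4.0.16, R 4.3.3) on the deposited counts, with filterByExpr, TMM scaling and Benjamini-Hochberg adjustment over 15801 genes, and CPM are TMM-scaled. Libraries held 24810378 to 28532480 counts, so counting error is small for all subunits but EMC2. Alternatives were DESeq2 1.42.0, DESeq2 size factors in edgeR, total counts without TMM, no filter, at least 10 counts in every library, a robust fit, glmTreat at 1.5-fold, limma 3.58.1 on log2(FPKM + 1) and log2(FPKM + 0.1), a mean FPKM of at least 1, a replicate block and each library left out. Scripts were tested on simulated data. Positions, MANE Select lengths and neighbours came from GENCODE 44 on GRCh38, in which 99.7% of the gene IDs were found, and promoters from RefSeq (GRCh38.p14). WDR83OS was not matched in the count table. Some overlapping or closely starting genes are not reported here. Named genes were GRB2, the subunits, MMGT1, overlapping or closely starting genes, the called members of 9 lists (up to the 4 with the largest changes in each direction) and the 5 genes most like EMC6. The members and lists were chosen with earlier results of these data known.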

Additional observations from a re-analysis of the deposited data

How the results depend on the processing

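The calls of EMC1 and EMC7 and the absence of lower calls and of DEGs among the 8 subunits held in every alternative that gave them, where glmTreat gave DEGs alone and a mean FPKM of at least 1 left out EMC2. With total counts and no TMM, EMC3 was also called higher (log2 fold change 0.11, adjusted p = 0.0224), in a scaling that moved the median of all genes to 0.05. The limma fits on FPKM called fewer genes: with log2(FPKM + 1), 834 higher, 566 lower, 79 DEGs, and 13 higher and 2 lower in the lists. With log2(FPKM + 0.1) these were 927, 607, 144, 14 and 2, and with the pseudocount of 1 on genes averaging an FPKM of at least 1, 1702, 987, 96, 23 and 2. MMGT1 was not called with a pseudocount of 1 (-0.20, adjusted p = 0.105) or 0.1 (-0.23, adjusted p = 0.0974) and was called with a pseudocount of 1 and a mean FPKM of at least 1 (-0.20, adjusted p = 0.029). glmTreat, which tests against a 1.5-fold change, gave 56 DEGs. By CPM per kilobase, 4 of 10 genes kept their FPKM rank.

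With 1 library left out, uncalled subunits near 0 changed sign: EMC4 ranged from -0.0083 to 0.0196, EMC8 from -0.0178 to 0.0607, EMC9 from -0.0259 to 0.0311 and EMC10 from -0.0074 to 0.0369. The difference in the EMC9 share ranged from -0.362 to 0.424 percentage points. The cause was not tested. EMC6 ranged from 0.54 to 0.68.

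Deviations of same-numbered libraries correlated at 0.232, -0.0948 and 0.0804. Whether the numbers pair the libraries was not tested. With the replicate number as a block, EMC1 (0.20) and EMC7 (0.13, adjusted p = 0.0121) were still called, and 2 of 8 subunits were called higher. Depth limits EMC2, at 174 to 222 reads in each library.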
